A study of Homo sapiens with 18 samples.

Results

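NTN1, DRAXIN, UNC5B, NEO1, L1CAM, SLIT2, SLIT3, ROBO1, SEMA3A and SEMA3C encode secreted guidance cues of growing axons, the receptors that read them, and an axonal adhesion molecule. These 10 genes are among the 58735 Ensembl genes counted in 18 RNA-seq libraries of a human podocyte line. They were chosen by symbol with earlier results on these libraries known, so the levels, differences and threshold calls given for them are a description and support no further statement. All 10 passed the filter on low counts, which kept 16129 genes.

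Podocytes are epithelial cells of the kidney filter whose branched foot processes wrap the glomerular capillaries, a shape built with an actin cytoskeleton much like that of neurites. Netrin-1, the product of NTN1, is read through the receptors of the DCC and neogenin family and through the UNC5 receptors, and it can attract or repel a growing process depending on which are present. Slit proteins act mainly as repellents through Robo receptors, and class 3 semaphorins act through neuropilins and plexins. In the kidney, netrin, slit and semaphorin signals are known from development and from studies of podocyte shape and glomerular injury.

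The line was PODO/TERT256, human podocytes immortalised with telomerase, and every group shared it. Cells covered 3D hemispheres with a smooth or a fractal surface. On either surface they were untreated (control), exposed to TNF-α plus IL-6 (cytokines), or exposed to macrophages derived from the monocytic leukaemia line THP-1 (called THP-1 here), which gives 6 groups of 3 libraries. The labels do not state that libraries of a group are separate cultures, so a p-value may measure technical spread. Levels are CPM values, each count as a share of its library's TMM-scaled total. Fold changes are log2 values from edgeR ± SE. That SE was derived here as the size of the log2 fold change over the square root of its F value. A change is called where the p-value adjusted over all 16129 tested genes is below 0.05.

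Library totals ran from 11488204 to 21264180 counts. Fractal THP-1 replicate 3 stood apart, with 17934 genes detected and a mitochondrial share of 0.847% of counts, and so did smooth cytokines replicate 2, where that share was 8.09%. The other 16 libraries had between 3.86% and 4.63%. The podocyte label was only partly borne out by its markers: NPHS1 (nephrin) had 3 counts in fractal controls, 3 in smooth THP-1 libraries and none elsewhere. WT1 had no count in either control group, whereas SYNPO (synaptopodin) stood at 66.6 ± 3.23 CPM (SD, n = 3) and CD2AP at 181 CPM in smooth controls. The summed level of 12 podocyte markers was 3710 to 3830 CPM in smooth and 3650 to 3690 CPM in fractal controls. With cytokines it was 2770 to 3080 CPM on smooth and 3040 to 3430 CPM on fractal topography. With THP-1 it was 3930 to 4300 CPM and 3140 to 3350 CPM. Of the 12, 8 had a count in smooth and 9 in fractal controls, 10 and 7 with cytokines, and 11 and 10 with THP-1. Most of the sum in smooth controls came from genes of the list other than NPHS1, WT1, SYNPO and CD2AP. Among neuronal markers, STMN2, ELAVL4 and DCX had no counts, while SYT1 and MAP2 were present at 31.2 and 30 CPM in smooth controls. The summed level of 9 neuronal markers was 59.7 to 63.9 CPM in smooth and 51.6 to 55.4 CPM in fractal controls, 42.9 to 51.8 CPM on smooth and 61.4 to 73.2 CPM on fractal topography with cytokines, and 110 to 121 CPM and 59.3 to 84.3 CPM with THP-1. MAP2 made up most of the sum in smooth THP-1 libraries, at 82.6 CPM. For 7 endothelial markers the sum was 4.72 to 5.8 CPM over the controls, 9.45 to 11.5 CPM on smooth and 6.33 to 8.18 CPM on fractal topography with cytokines, and 12 to 12.7 CPM and 12.9 to 16.3 CPM with THP-1. Of 15 monocyte and macrophage markers, 13 were detected in smooth THP-1 and 12 in fractal THP-1 libraries. Their summed level was 34.9 to 38.6 CPM and 20.2 to 20.8 CPM there, against 1.93 to 3.26 CPM over the controls and 2.23 to 5.46 CPM with cytokines. TYROBP had no count outside the THP-1 groups, and C1QB had none in any library. The labels give no step that parts the cells before lysis, and the part of these marker changes in the cytokine and THP-1 results below was not tested. In such bulk libraries a lower level can mean fewer expressing cells or less RNA per cell, which cannot be told apart.

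RefSeq entries for the bases just upstream of the start were available for 7 of the 10 genes (GRCh38.p14). The stretches below show 2 genes that fell together on fractal controls, L1CAM and DRAXIN, and the slit pair, whose treated ratios differed between surfaces, SLIT2 and SLIT3. Each is written 5′ to 3′ on the strand of its gene, and capitals mark GGGCGG on either strand, the core of a GC box. For L1CAM (chrX:153876040-153876113, minus strand) and DRAXIN (chr1:11691651-11691709, plus strand) the longest part free of annotated UTR and coding sequence is given. Introns and noncoding exons were not removed. The RefSeq start of L1CAM and its stretch lie inside the GENCODE span of that gene. SLIT2 (chr4:20251655-20251904, plus strand) and SLIT3 (chr5:169301140-169301389, minus strand) are given over 250 bases.
L1CAM: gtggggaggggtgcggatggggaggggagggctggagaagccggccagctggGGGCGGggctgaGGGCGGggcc
DRAXIN: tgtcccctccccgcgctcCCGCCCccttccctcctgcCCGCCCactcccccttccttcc
SLIT2: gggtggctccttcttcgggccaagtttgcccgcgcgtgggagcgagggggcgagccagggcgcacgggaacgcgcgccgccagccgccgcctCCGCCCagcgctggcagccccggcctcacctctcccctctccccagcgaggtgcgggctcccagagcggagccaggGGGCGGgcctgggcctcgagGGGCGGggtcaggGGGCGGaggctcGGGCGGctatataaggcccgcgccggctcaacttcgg
SLIT3: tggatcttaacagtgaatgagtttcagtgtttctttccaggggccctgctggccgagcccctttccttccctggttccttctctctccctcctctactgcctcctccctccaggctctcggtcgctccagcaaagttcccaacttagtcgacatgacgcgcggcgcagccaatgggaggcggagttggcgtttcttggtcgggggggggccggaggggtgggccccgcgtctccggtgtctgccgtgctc
The SLIT2 stretch held 5 such matches and the SLIT3 stretch none, while the shorter L1CAM (74 bases) and DRAXIN (59 bases) stretches held 2 each. Over their whole windows of 250 bases, L1CAM held 2 and DRAXIN 3. Among 34939 promoters of 250 bases, 42.5% had at least 1 match. CpG dinucleotides numbered 30 in the SLIT2 window and 16 in the SLIT3 window, against a median of 11. None of the entries matched TGANTCA (6.59% of all promoters), TATAAA (10.8%) or the NF-kB consensus (9.95%), each searched on both strands. A match is a description of letters, and gene counts do not show which start was used.

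NTN1 (ENSG00000065320, chromosome 17, 9021542 to 9244000, plus strand, GRCh38) encodes netrin-1 and had the widest span of group means, 14.3-fold between fractal controls and fractal THP-1 libraries. Smooth controls held 49.3, 48.1 and 53.1 CPM and fractal controls 20.0, 17.5 and 18.6 CPM, a log2 fold change of -1.43 ± 0.13 for fractal over smooth. With cytokines the smooth libraries held 168, 151 and 215 CPM and the fractal libraries 30.7, 39.1 and 33.8 CPM, a log2 fold change of -2.37 ± 0.12. Fractal cells under cytokines therefore all lay below the untreated smooth cells. With THP-1 the smooth libraries held 249.6, 216 and 228 CPM and the fractal ones 242, 248 and 310 CPM. The groups overlapped, and the difference of 0.21 ± 0.11 was not called (adjusted p = 0.223), nor was it without the libraries that stood apart (0.08, adjusted p = 0.538).

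Each treatment raised NTN1 on each surface. Cytokines raised it by 1.83 ± 0.12 on smooth and by 0.89 ± 0.13 on fractal topography, and THP-1 by 2.21 ± 0.12 and 3.84 ± 0.13. The increase under cytokines was smaller on fractal than on smooth topography (difference of the log2 effects -0.94 ± 0.17, adjusted p = 0.00209), and that with THP-1 was larger (1.63 ± 0.17, adjusted p = 2.64e-07). These comparisons share the control libraries, so a low fractal control enters every fractal effect. In order of level, the THP-1 groups came highest and overlapped each other. They were followed by smooth cytokines, smooth control, fractal cytokines and fractal control, none of which overlapped its neighbour.

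DRAXIN (ENSG00000162490, chromosome 1, 11691729 to 11725857, plus strand) encodes a secreted repellent that binds netrin-1 and its receptor DCC. Smooth controls held 3.12, 3.51 and 4.64 CPM and fractal controls 1.32, 1.46 and 0.757 CPM, so the groups did not overlap (-1.64 ± 0.26). Under cytokines the order was the opposite, with 2.68, 3.4 and 2.62 CPM on smooth and 4.32, 5.9 and 5.98 CPM on fractal topography (0.90 ± 0.23, adjusted p = 0.019). The DRAXIN call was lost when smooth cytokines replicate 1 or 3 or fractal cytokines replicate 2 or 3 was left out (0.81 to 0.83, adjusted p at most 0.106). With THP-1 the level rose to 16.8, 14.8 and 14.3 CPM on smooth and 10.9, 15 and 10.7 CPM on fractal topography, and the surfaces overlapped.

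DRAXIN was the only one of the 10 with an increase under cytokines of over 1 log2 unit on one surface and a negative value on the other. Its change was -0.36 ± 0.24, not called, on smooth and 2.18 ± 0.25 on fractal topography, and the difference of these effects was 2.54 ± 0.35 (adjusted p = 5.17e-05). THP-1 raised it by 2.03 ± 0.22 on smooth and 3.35 ± 0.25 on fractal topography, with a difference of 1.32 ± 0.33. The counts behind these values were low, 13 to 31 per library in fractal controls and 127 to 289 with THP-1.

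UNC5B (ENSG00000107731, chromosome 10, 71212570 to 71302864, plus strand) encodes a netrin receptor of the UNC5 family, known for repulsion and for its role in vessels. It responded mainly to cytokines. Controls held 31.4, 28.6 and 30.9 CPM on smooth and 27.5, 25.6 and 23.3 CPM on fractal topography. With cytokines the values were 54.5, 48.1 and 66 CPM on smooth and 78, 86.5 and 71.1 CPM on fractal topography, so that neither treated group overlapped any control or THP-1 library. The rise was 0.89 ± 0.11 on smooth and 1.62 ± 0.11 on fractal topography, and its difference was 0.73 ± 0.16 (adjusted p = 0.00932).

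Under cytokines UNC5B was higher on fractal than on smooth topography by 0.48 ± 0.11, the opposite direction to NTN1. Leaving out replicate 2 ended this call, whether that of the smooth cytokines group (0.38, adjusted p = 0.0606) or that of the fractal one (0.40, adjusted p = 0.0822). THP-1 raised UNC5B on fractal topography by 0.55 ± 0.12, whereas on smooth topography the value was 0.13 ± 0.12 and not called. The difference between these effects was not called either (0.42 ± 0.16, adjusted p = 0.0918).

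NEO1 (ENSG00000067141, chromosome 15, 73051710 to 73305206, plus strand) encodes neogenin, a receptor of the DCC family for netrins and for repulsive guidance molecules. It rose with each treatment on each surface, and no treated library overlapped a control. Controls held 8.35, 7.54 and 9.5 CPM on smooth and 5.97, 8.12 and 5.94 CPM on fractal topography. With cytokines the values were 29.3, 20.2 and 31.9 CPM on smooth and 23.5, 17.4 and 21.9 CPM on fractal topography, log2 rises of 1.69 ± 0.19 and 1.64 ± 0.19. The 95% interval of the difference between these rises, built from its derived SE with 12 degrees of freedom, ran from -0.64 to 0.55. With THP-1 the smooth libraries lay at 38.1, 36.9 and 37.7 CPM and the fractal ones at 50.2, 47.5 and 30.4 CPM, rises of 2.15 ± 0.19 and 2.67 ± 0.19.

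The lowest of those fractal NEO1 values came from replicate 3, which had stood apart. NEO1 was not called between surfaces in any condition with all libraries (-0.33 ± 0.21 in controls, -0.38 ± 0.18 with cytokines, 0.19 ± 0.17 with THP-1). With both of the libraries that stood apart left out, it was called higher on fractal topography with THP-1 (0.38, adjusted p = 0.00946) and lower there with cytokines (-0.55, adjusted p = 0.000974).

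The other netrin receptors listed were scarce. DCC had 2 counts in the fractal THP-1 group and none elsewhere, UNC5C had 5 counts in the fractal cytokines group and none elsewhere, and UNC5A had at most 7 counts in a group. UNC5D appeared with cytokines: over the 3 libraries of a group, smooth topography had 0 counts in controls and 90 with cytokines. Set against 3 counts, the limit that a group total of 0 allows, and with the 90 counts taken as exact, this was at least 28.1-fold higher. On fractal topography it went from 2 to 146 counts, 86.8-fold with a 95% counting interval of 23.6 to 723, and both changes were called. UNC5D could not have passed the filter on low counts through its control groups, so these calls are a description and no support. Such intervals and floors cover counting error only.

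Ratios per kilobase of exon set ligand beside receptor within a library. NTN1 to UNC5B was 1.78 ± 0.09 (SD, n = 3) in smooth and 0.788 ± 0.06 in fractal controls. With cytokines it was 3.39 ± 0.10 on smooth topography, where ligand and receptor rose, and 0.472 ± 0.05 on fractal topography, where the receptor rose more. With THP-1 it was 7.48 ± 0.44 and 7.62 ± 0.28. NTN1 to NEO1 lay at 7.58 ± 0.50, 8.46 ± 1.13 and 7.83 ± 0.46 across the smooth control, cytokines and THP-1 groups, at 3.66 ± 0.81 in fractal controls and at 2.16 ± 0.62 in fractal cytokines. In fractal THP-1 libraries it ranged from 6.13 to 13, the highest in replicate 3.

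**Figure D1:**
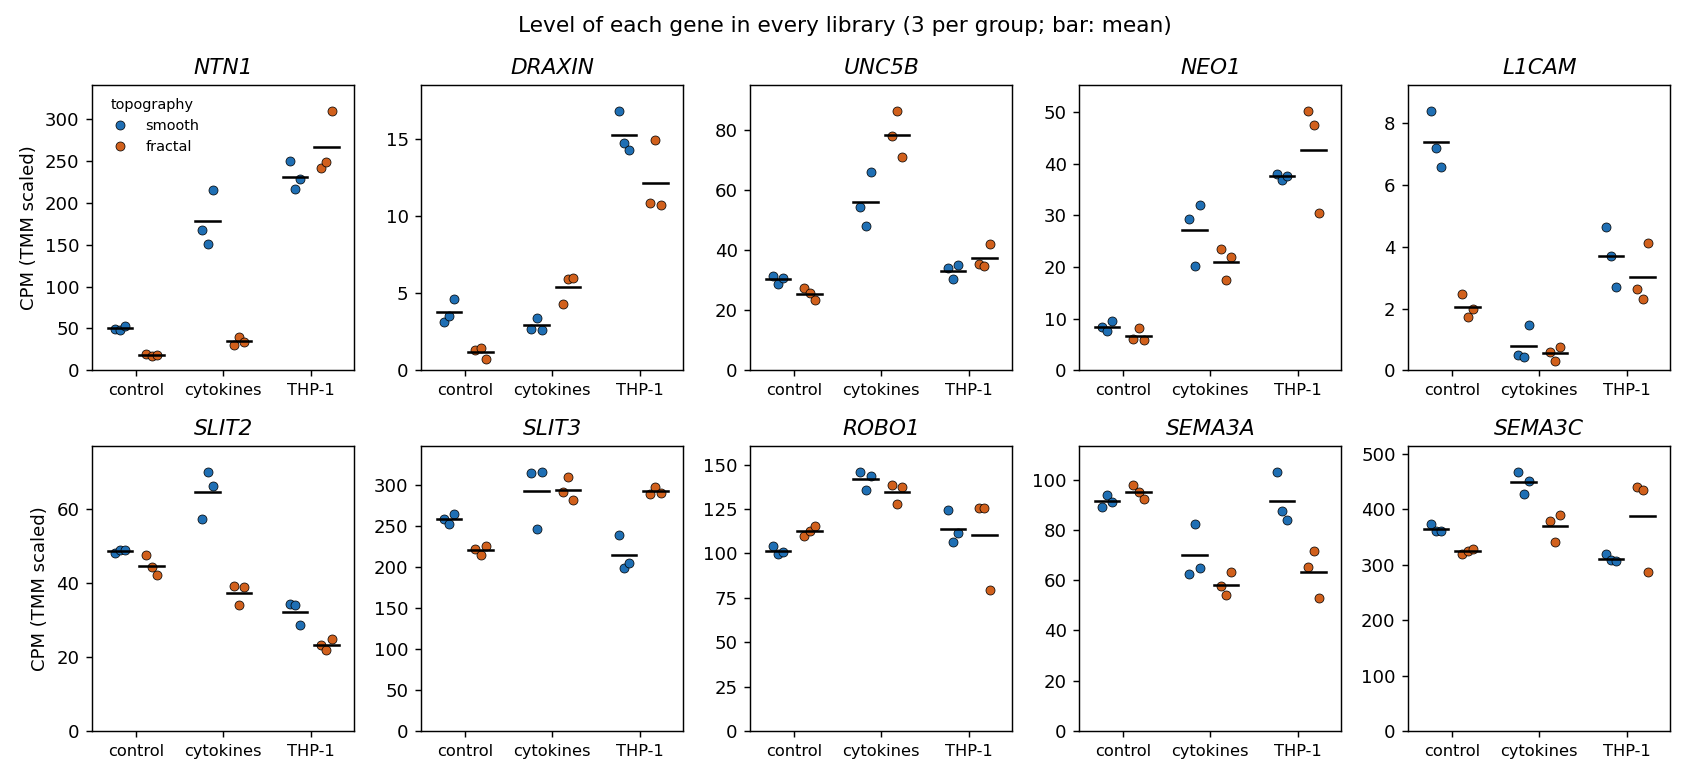
Level of each of the 10 genes in every library (CPM with TMM scaling, linear axes from 0), smooth in blue and fractal in orange, with a bar at the mean of the 3 libraries of a group. NTN1 on fractal topography stays between 17.5 and 39.1 CPM in controls and with cytokines and reaches 242 to 310 CPM with THP-1.

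L1CAM (ENSG00000198910, chromosome X, 153861514 to 153886174, minus strand) encodes a neural adhesion molecule that binds itself and ankyrins and takes part in axon growth. Its level was low in every group and highest in the smooth controls, at 8.41, 7.2 and 6.6 CPM. Fractal controls held 2.47, 1.74 and 1.98 CPM, a log2 fold change of -1.85 ± 0.34. With cytokines it fell to 0.488, 0.418 and 1.48 CPM on smooth and 0.599, 0.307 and 0.764 CPM on fractal topography, where a library held between 5 and 27 counts. The surfaces overlapped there (-0.54 ± 0.48, not called, and 0.28 without smooth cytokines replicate 3), so the fall was -3.19 ± 0.38 from the higher smooth control and -1.88 ± 0.43 from the lower fractal one. The difference of these falls was not called (1.31 ± 0.60, adjusted p = 0.327), also without smooth cytokines replicate 3, when it was 2.12 (adjusted p = 0.0597).

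With THP-1 L1CAM lay at 4.66, 3.7 and 2.71 CPM on smooth and 2.64, 2.31 and 4.13 CPM on fractal topography. On smooth topography this was a fall of -1.003 ± 0.33 that was lost without smooth control replicate 1, smooth THP-1 replicate 2 or smooth THP-1 replicate 3 (-0.83 to -1.01, adjusted p 0.0518 to 0.0973). On fractal topography the value was 0.54 ± 0.35 and not called, and without fractal THP-1 replicate 3 it was 0.26 (adjusted p = 0.565). The difference of these effects was called with all libraries (1.54 ± 0.48, adjusted p = 0.0327) and was lost under 6 of the 27 alternatives, each of which left out a library (1.35 to 1.56). They were smooth control replicate 1 or 2, fractal control replicate 2 or 3, and smooth THP-1 replicate 2 or 3. L1CAM shares 359 exonic bases with L1CAM-AS1 on the other strand, which libraries without strand cannot separate.

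SLIT2 (ENSG00000145147, chromosome 4, 20253260 to 20620561, plus strand) and SLIT3 (ENSG00000184347, chromosome 5, 168661733 to 169301129, minus strand) encode secreted repellents read by Robo receptors. SLIT2 was near 50 CPM in controls, with 48.1, 49 and 49 CPM on smooth and 47.6, 44.5 and 42.2 CPM on fractal topography (-0.12 ± 0.10, not called). Cytokines raised it on smooth topography to 57.5, 70.3 and 66.3 CPM (0.41 ± 0.10). On fractal topography the libraries lay at 39.2, 34 and 38.9 CPM, below all their controls, but the change of -0.26 ± 0.10 missed the threshold (adjusted p = 0.0542) and passed it under 12 of the 27 alternatives. The difference of the responses was called (-0.67 ± 0.14, adjusted p = 0.00529), as was the gap between surfaces under cytokines (-0.79 ± 0.10).

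THP-1 lowered SLIT2 on both surfaces, to 34.3, 34.1 and 28.6 CPM on smooth (-0.59 ± 0.10) and to 23.2, 21.9 and 25 CPM on fractal topography (-0.94 ± 0.10). Fractal libraries were lower than smooth ones with no overlap (-0.47 ± 0.10, adjusted p = 0.00158), and a fit to these 6 libraries alone gave -0.46 with an adjusted p of 0.0511. SLIT2 and L1CAM were the members with a lower mean on fractal topography in all 3 conditions, past the threshold in 2 of them for SLIT2 and in controls for L1CAM.

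SLIT3 was more abundant per kilobase and moved less, 1.37-fold between its lowest and highest group. Smooth controls held 252 to 264 CPM and fractal controls 215 to 225 CPM, which did not overlap, yet the difference of -0.23 ± 0.09 was not called. On fractal topography it rose with cytokines to between 282 and 309 CPM (0.41 ± 0.09) and with THP-1 to between 289 and 297 CPM (0.40 ± 0.09). On smooth topography cytokine libraries held 314, 246 and 316 CPM (0.18 ± 0.09, not called). The middle value belongs to replicate 2, without which the change was 0.29 and was called. Smooth THP-1 libraries held 239, 199 and 204 CPM, a fall of -0.27 ± 0.09 that was lost without smooth THP-1 replicate 2 (-0.22), smooth THP-1 replicate 3 (-0.24) or smooth control replicate 3 (-0.26; adjusted p 0.0596 to 0.0977 over the 3). The opposite directions with THP-1 gave a called difference of 0.67 ± 0.12 (adjusted p = 0.000425).

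The slits therefore parted on fractal topography. Per kilobase, SLIT3 to SLIT2 was 3.60 ± 0.09 (SD, n = 3) in smooth and 3.36 ± 0.24 in fractal controls. It was 3.12 ± 0.68 in smooth and 5.39 ± 0.69 in fractal cytokine libraries, and 4.52 ± 0.48 and 8.53 ± 0.66 with THP-1, without overlap between the surfaces in either treatment. SLIT3 overlaps the exons of 2 antisense genes and a Y RNA on the other strand, by 113 to 334 bases each.

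ROBO1 (ENSG00000169855, chromosome 3, 78597240 to 79767815, minus strand) encodes the slit receptor of the set. With all libraries it was the steadiest member by calls, with 1 in 7 comparisons of 2 groups. Its group means spanned 1.4-fold, slightly more than those of SLIT3 (1.37-fold). Smooth controls held 104, 99.5 and 101 CPM, and cytokines raised them to 146, 136 and 144 CPM (0.48 ± 0.11). On fractal topography the values were 110, 113 and 116 CPM in controls and 139, 128 and 137 CPM with cytokines, which did not overlap (0.26 ± 0.11, adjusted p = 0.103). With THP-1 the smooth libraries held 106 to 125 CPM. In the fractal group 2 libraries held 126 CPM and replicate 3 held 79.3 CPM. Without the libraries that stood apart ROBO1 was also called higher with cytokines on fractal topography (0.25, adjusted p = 0.000711). The same fit called it higher with THP-1 on smooth topography (0.16, adjusted p = 0.0255). Of its relatives, ROBO2 had at most 5 counts in a group, and ROBO4, the Robo of vessels, at most 19.

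SEMA3A (ENSG00000075213, chromosome 7, 83955777 to 84492724, minus strand) and SEMA3C (ENSG00000075223, chromosome 7, 80742538 to 80922359, minus strand) encode class 3 semaphorins. SEMA3A, best known for growth cone collapse, differed little between the controls, with 89 to 93.9 CPM on smooth and 92.3 to 97.8 CPM on fractal topography. Cytokines lowered it on smooth topography to 62.5, 82.3 and 64.8 CPM (-0.39 ± 0.11) and on fractal topography to 57.7, 53.9 and 63.1 CPM (-0.71 ± 0.11). Without replicate 1 of the smooth cytokines group the smooth change was -0.33 and not called (adjusted p = 0.0519). With THP-1 the smooth libraries held 103, 87.7 and 83.9 CPM, spanning their controls (0.00 ± 0.11), and the fractal libraries fell to 65.2, 71.5 and 53.1 CPM (-0.58 ± 0.11). The difference of these effects was called (-0.59 ± 0.15, adjusted p = 0.0101), as was the gap between surfaces with THP-1 (-0.53 ± 0.11).

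SEMA3C had the highest level per kilobase of the 10 in every group, 58.3 ± 1.21 RPKM (SD, n = 3) in smooth controls beside 18.1 ± 0.41 RPKM for SLIT3 and 1.02 ± 0.13 RPKM for L1CAM. Its changes were small. Cytokines raised it on smooth topography from between 361 and 374 CPM to between 427 and 468 CPM (0.30 ± 0.11, adjusted p = 0.0383), a call held by 13 of the 27 alternatives and lost when any 1 library was left out other than smooth cytokines replicate 2 or one of the fractal THP-1 group (0.25 to 0.31). In fractal THP-1 libraries it lay at 441, 434 and 287 CPM, the last again replicate 3, against 320 to 329 CPM in fractal controls and 307 to 319 CPM in smooth THP-1 libraries. With replicate 3 in place the rise over fractal controls was 0.26 ± 0.11 (adjusted p = 0.0465, held by 7 of the 27 alternatives and, of those that leave out 1 library, by the one without replicate 3 alone), or 0.25 with an adjusted p of 0.0547 where the replicate number was a block. Against smooth THP-1 libraries the difference was 0.32 ± 0.11 (adjusted p = 0.0342), and the difference of the effects was 0.49 ± 0.15 (adjusted p = 0.0298). Without the libraries that stood apart these were 0.42, 0.49 and 0.66, and without fractal THP-1 replicate 1 they were 0.14, 0.21 and 0.38 and none was called, nor without replicate 2 (0.16, 0.22 and 0.39). The difference from smooth THP-1 libraries was also lost without any 1 of these (0.30 to 0.33), and the difference of the effects without any 1 of the control or smooth THP-1 libraries (0.46 to 0.50). Under cytokines SEMA3C was lower on fractal topography without overlap, but the difference of -0.28 ± 0.11 was not called (adjusted p = 0.172). Without the libraries that stood apart it was called (-0.31, adjusted p = 9.84e-05). So were -0.17 between controls, -0.23 with THP-1 on smooth and 0.18 with cytokines on fractal topography. Of the neuropilins that bind class 3 semaphorins, NRP1 was at 595 to 726 CPM and NRP2 at 289 to 370 CPM over the group means.

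The ratio of SEMA3C to SEMA3A per kilobase was 5.98 ± 0.28 and 5.12 ± 0.22 (SD, n = 3) in smooth and fractal controls. With cytokines it was 9.79 ± 1.81 and 9.50 ± 0.29. With THP-1 it was 5.11 ± 0.44 on smooth and 9.10 ± 1.01 on fractal topography, and these groups did not overlap.

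Counted over the 10 genes, topography alone gave 3 calls between the controls. Of all genes tested, 1.77% were called between the controls, and of the 10 genes 3 fell on fractal topography (NTN1, DRAXIN and L1CAM), against 1.12% of all genes. By edgeR 0 rose, against 0.651% of all genes, with 0 at an unadjusted p under 0.05 and 0 by DESeq2 or limma-voom. The control groups did not overlap for 8 of the 10, against 30.3% of all genes. A fit to the 6 control libraries alone called 7 (1 higher, 6 lower), as it called more of all genes, 2755 in place of 286, and without the libraries that stood apart 5 were called. With cytokines 4 were called between surfaces (4.46% of all genes), DRAXIN and UNC5B higher (1.72%) and NTN1 and SLIT2 lower (2.74%) on fractal topography, and 5 did not overlap (17.6%). Without fractal cytokines replicate 2 only NTN1 and SLIT2 remained. With THP-1 4 were called (20% of all genes), SEMA3C and SLIT3 higher (8.25%) and SEMA3A and SLIT2 lower (11.7%), and 3 did not overlap (31.1%). The 6 THP-1 libraries fitted alone gave 2 calls.

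**Figure D2:**
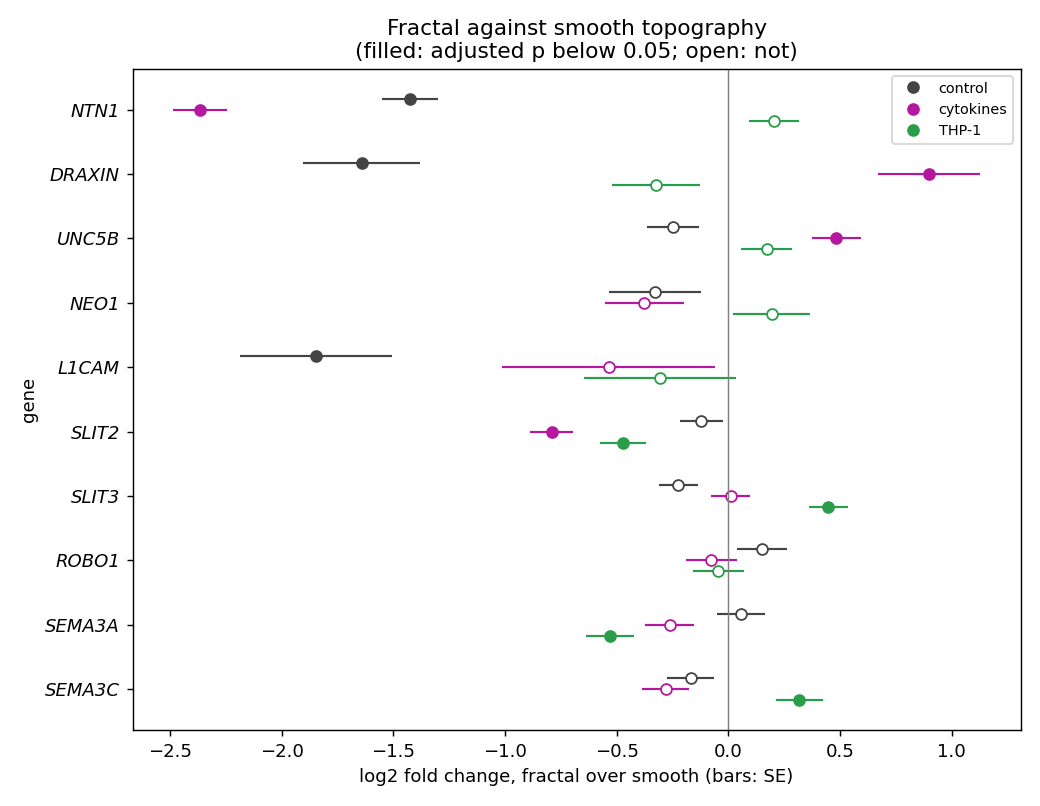
Log2 fold change of fractal over smooth topography for each gene (x axis), in controls (grey), with cytokines (magenta) and with THP-1 (green). Bars are the SE derived from the F value, and filled points passed the adjusted threshold. NTN1 lies at -1.43 in controls, -2.37 with cytokines and 0.21 with THP-1.

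Treatment calls were more common, among the 10 as among all genes. Cytokines raised 6 and lowered 2 on smooth topography (25.7% of all genes called) and raised 5 and lowered 2 on fractal topography (25.8%). Groups did not overlap for 8 and 10 members, against 43.3% and 46.8% of all genes. THP-1 raised 3 and lowered 3 on smooth topography (35.1%) and raised 6 and lowered 2 on fractal topography (50.5%), with 8 and 7 members not overlapping, against 54.4% and 55.1%. NTN1 and NEO1 were called in all 4 of these comparisons and rose in each, and 10.5% of all genes were called in all 4. The median log2 fold change of the 10 was 0.35 and 0.34 with cytokines and 0.07 and 0.47 with THP-1, on smooth and fractal topography, beside 0.01, 0.03, 0.02 and 0.04 over all genes. The effect of cytokines differed between surfaces for 4 of the 10 (2.7% of all genes), being more positive on fractal topography for 2 (1.28%) and more negative for 2 (1.43%). The effect of THP-1 differed for 6 (13.2%), more positive for 5 (5.35%) and more negative for 1 (7.88%). Each of the 10 was called in at least 1 of the 7 comparisons of 2 groups, as were 64.7% of all genes.

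**Figure D3:**
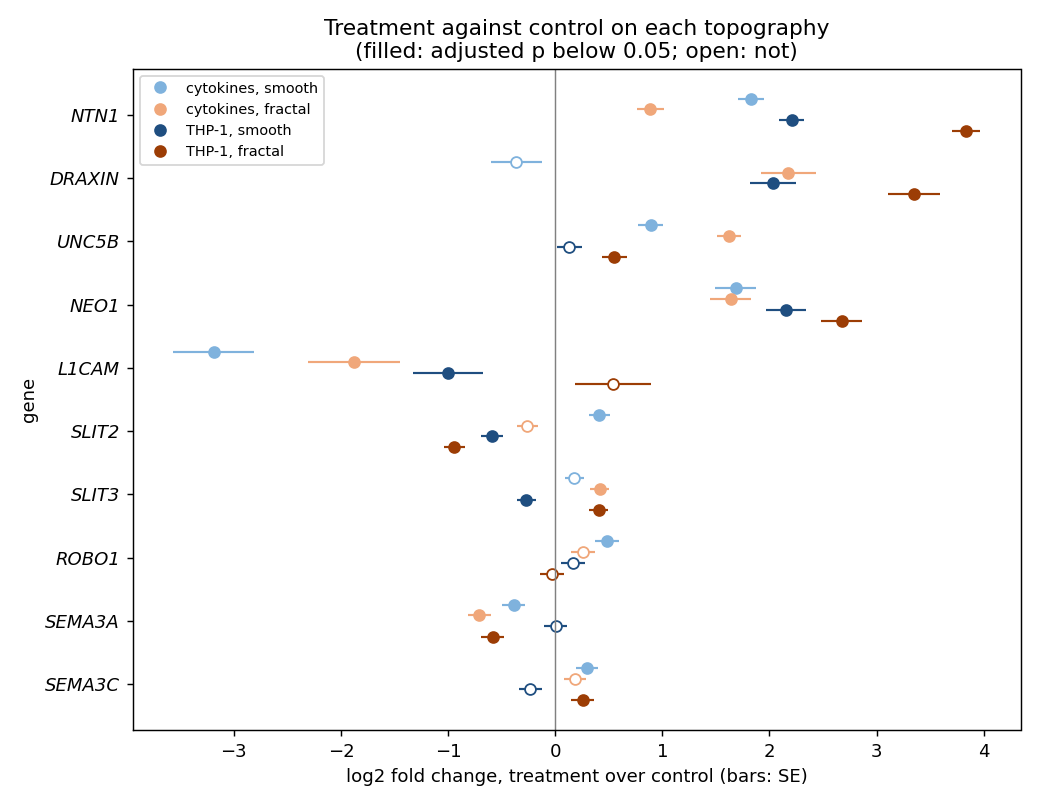
Log2 fold change of each treatment over control for each gene (x axis), cytokines in light and THP-1 in dark colours, smooth in blue and fractal in brown. Bars are the SE derived from the F value, and filled points passed the adjusted threshold. NTN1 and NEO1 lie to the right of 0 in all 4 comparisons, and L1CAM reaches -3.19 with cytokines on smooth topography.

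For the 3 members with the widest range of group means, the genes with the most similar profile were taken from 13064 protein-coding genes by Pearson correlation of log2 CPM over the 18 libraries. These points share groups and depth, so the values are descriptive. Closest to NTN1 were IRAK2, a kinase of interleukin-1 receptor signalling (0.978), the tetraspanin CD82 (0.969), the class I antigen HLA-B (0.963), NRROS (0.960) and ICOSLG, a ligand of T cell costimulation (0.958). Reads that HLA-B shares with its relatives leave its level uncertain. For DRAXIN they were the transcriptional regulator CITED2 (0.933), ATP8A1, CCDC198, the selectin SELP and KLF11 (0.919). For L1CAM they were the nuclease AEN (0.903), DOP1B, NAT8L, AP3M2 and the cytoskeletal linker MACF1 (0.883).

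The wider pathway was followed in 113 other guidance genes, of which 82 were tested. These lists too were chosen with earlier results of these data known. Their shares beside those of all genes are therefore a description and support no statement on the pathway. Between the controls 3 rose and 4 fell on fractal topography (8.54%, against 1.77% of all genes). Those lower were NTNG1, a membrane-anchored netrin relative (-0.84 ± 0.11), ANK1, an ankyrin (-1.30 ± 0.20), ABLIM1, an actin-binding protein (-1.90 ± 0.28), and the kinase FYN (-0.43 ± 0.09). Those higher were PLXND1, a semaphorin receptor (0.42 ± 0.08), SEMA7A (0.50 ± 0.12) and SEMA3F (0.34 ± 0.08). Under cytokines 4 were higher and 4 lower on fractal topography (9.76%, against 4.46%), among them SEMA3D (-0.92 ± 0.14) and the ephrin EFNB1 (-0.69 ± 0.12). With THP-1 9 were higher and 9 lower (22%, against 20%), among them the Eph receptors EPHA3 (1.4 ± 0.19) and EPHA4 (1.27 ± 0.21), SEMA7A (-1.32 ± 0.13) and PLXNA2 (-1.09 ± 0.16).

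Cytokines raised 25 and lowered 14 of these 82 genes on smooth topography (47.6%, against 25.7% of all genes) and raised 23 and lowered 17 on fractal topography (48.8%, against 25.8%). Their median log2 fold change was 0.11 and 0.08, beside 0.01 and 0.03 over all genes. The ephrins, ligands of the Eph receptors, had 4 of 7 called on each surface, all higher, and the Eph receptors had 5 higher and 2 lower of 8 on smooth and 4 higher and 1 lower on fractal topography. EPHA4 rose by 1.41 ± 0.23 and 2.58 ± 0.24. NTNG2 rose by 2.14 ± 0.23 and 1.55 ± 0.22, whereas RGMB, a ligand of neogenin, fell by 1.203 ± 0.14 and 1.11 ± 0.14. RGMB shares 2682 exonic bases with an antisense gene and 363 with RGMB-AS1, both on the other strand. Libraries without strand cannot separate these. Among genes of the semaphorin family, SEMA5A rose (2.47 ± 0.25 and 1.47 ± 0.25). SEMA3E fell (-3.14 ± 0.47 and -2.39 ± 0.45), and PLXNA4 rose by 0.87 ± 0.14 and 1.45 ± 0.14.

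THP-1 raised 32 and lowered 19 on smooth topography (62.2%, against 35.1% of all genes) and raised 32 and lowered 21 on fractal topography (64.6%, against 50.5%). The medians were 0.24 and 0.16, beside 0.02 and 0.04 over all genes. NTN4, a netrin of basement membranes, went against NTN1: it fell from 110 ± 3.45 to 42.6 ± 2.53 CPM on smooth topography (-1.37 ± 0.11) and from 125 ± 3.05 to 39.8 ± 4.92 CPM on fractal topography (-1.64 ± 0.11). NTNG1 rose by 1.17 ± 0.10 and 1.502 ± 0.11. The slit effector SRGAP3 rose by 2.83 ± 0.47 and 4.15 ± 0.47 from a level below 1 CPM, the Eph receptor EPHB1 by 3.44 ± 0.35 and 4.20 ± 0.38, and SEMA5A by 2.88 ± 0.25 and 2.48 ± 0.24. The contactin CNTN1, a partner of the L1 family, fell (-2.36 ± 0.14 and -2.25 ± 0.15). The summed macrophage, endothelial and neuronal markers were higher in these THP-1 groups than in the controls of the same surface, as given above, and their part was not tested.

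**Figure D4:**
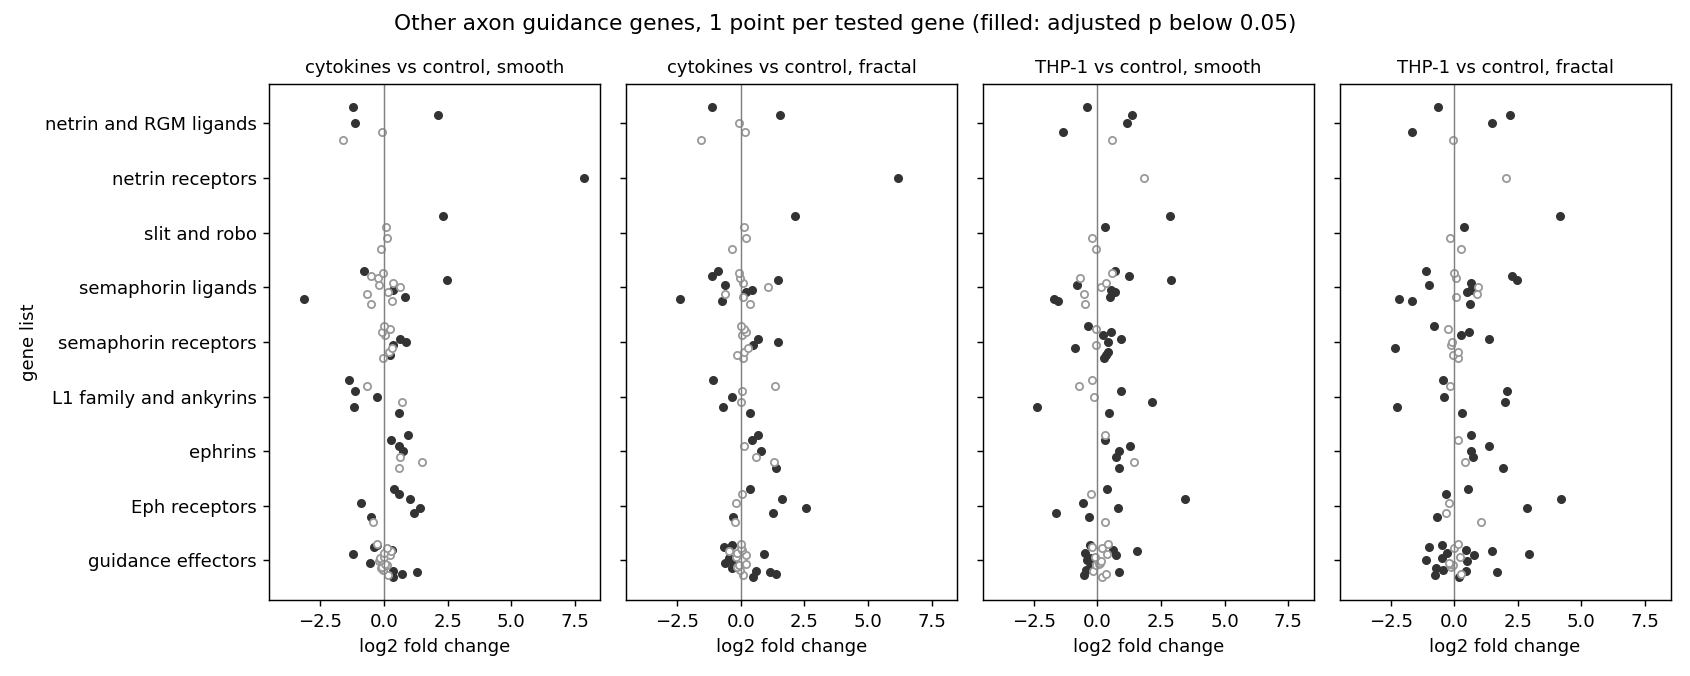
Log2 fold change of each tested guidance gene outside the 10 (1 point per gene, x axis), by list (y axis), for the 4 comparisons of a treatment with control; filled points passed the adjusted threshold. The point farthest to the right in the panels for cytokines is UNC5D, whose smooth controls had no count, so its fitted fold is no bound.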

How the data were processed

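RNA from PODO/TERT256 cells was selected with poly-T beads and sequenced as paired reads without strand, per the labels' protocols. Per the submitters' processing notes the tools were HISAT2 2.0.5, CASAVA and featureCounts 1.5.0-p3 with the build GRCh38 (hg38), no roles being given; the annotation is not given in the sources used here. The deposited table holds raw counts, whole numbers per gene and library, as the authors made them. Positions, exon lengths and strand overlaps came from GENCODE 29, matched by Ensembl identifier. Promoter sequences came from RefSeq (GRCh38.p14).

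Counts were tested with edgeR 4.0.16 in R 4.3.3: TMM scaling, filterByExpr (min.count 10, min.total.count 15), 1 model with 6 group means (12 residual degrees of freedom), robust quasi-likelihood F-tests and Benjamini-Hochberg adjustment over all 16129 tested genes in each of 9 comparisons, 2 of them interactions. Because the spread is shared by all groups, a library that stands apart can widen it in every comparison. RPKM divides CPM by exon length. The members and the gene lists were chosen with earlier results of these data known. Genes named besides the members were, per list and comparison, up to 3 in each direction by adjusted p with no overlap between groups, not all of them printed, and the 5 with the most similar profile for 3 members; NRP1, NRP2, the Robo and netrin receptor relatives and the markers are named for their role alone. Alternatives were DESeq2 1.42.0, limma-voom (limma 3.58.1), RLE and upper-quartile scaling, no filter, other fits and leaving out libraries. Figures used matplotlib 3.10.9. Not every podocyte marker of the list is reported here.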

Additional observations from a re-analysis of the deposited data

Results flagged for a closer look

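The responses of several guidance genes differed between smooth and fractal topography by the interaction term of edgeR's quasi-likelihood test, adjusted by Benjamini-Hochberg over all genes. Values are the log2 effect on fractal minus that on smooth topography. With cytokines 2.7% of all genes passed this test. Among the 10 genes the differences were -0.94 for NTN1, 2.54 for DRAXIN, 0.73 for UNC5B and -0.67 for SLIT2. Of the 82 other guidance genes tested 8.54% passed. Their differences were 1.07 for NTNG1, -1.07 for SEMA3D, -0.73 for SEMA3F, 1.19 for ANK1, 0.71 for EPHA5, -0.57 for EPHB2 and 2.12 for ABLIM1.

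With THP-1 13.2% of all genes passed. The differences were 1.63 for NTN1, 1.54 for L1CAM, 1.32 for DRAXIN, -0.59 for SEMA3A, 0.49 for SEMA3C and 0.67 for SLIT3. Those of L1CAM and SEMA3C were lost when some single libraries were left out, as given above. Of the 82 other guidance genes tested 17.1% passed, near the 13.2% of all genes. They gave -0.42 for SEMA3F, -1.82 for SEMA7A, -0.39 for NRP2, -1.41 for PLXNA2 and -0.41 for PLXND1. ANK1 gave 1.13, EPHA3 1.31, EPHA4 2.02, CRMP1 0.83, FYN 0.65, ENAH -0.41, FARP2 -0.68, ABLIM1 2.58 and PAK1 -0.78. FARP2 shares 1094 exonic bases with STK25 on the other strand, and PAK1 934, ANK1 842 and EPHA4 353 with antisense genes. CRMP1, SEMA3F and NRP2 here, and SRGAP3 and SEMA5A among those named above, also overlap genes on the other strand. Libraries without strand cannot separate such pairs. NTN1, DRAXIN, SEMA3F, ANK1 and ABLIM1 stand in both sets, which share the control libraries. NTN1 and SEMA3F have values below 0 with cytokines, and NTN1 alone of these 5 changes sign between the treatments.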

How the results depend on the processing

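No call of the 10 genes was reversed under these alternatives. Over 27 alternatives and 9 comparisons, 2313 values stayed on their side of the threshold, 44 passed it newly and 72 lost it. L1CAM under cytokines could not be fitted between surfaces with only those groups. The number of genes of the set called between controls, 3, became 7 with only the 6 control libraries fitted and 5 without the libraries that stood apart, and with THP-1 it fell from 4 to 2 when only those groups were fitted. Without 1 library at a time it ran from 2 to 5 between surfaces under cytokines. Of the other guidance genes, only the groups of the comparison gave 26 between controls, 9 between surfaces with THP-1 and 13 for the cytokine interaction. No filter gave 13 between surfaces under cytokines. Without the libraries that stood apart the counts were 16 between controls, 22 with cytokines, 31 with THP-1, and 18 and 24 for the interactions. Leaving out 1 library gave 4 to 10 between controls, 6 to 16 under cytokines and 4 to 14 for the cytokine interaction. The main fit tested 82 of these genes. Calls over all genes also rose without the libraries that stood apart, from 286 to 1188 between controls and from 719 to 1561 with cytokines. Between surfaces with THP-1 the highest number of all genes over the alternatives was 4222, beside 3220, so these counts say nothing particular to guidance genes. Among all genes, the control comparison called 286 by edgeR, 509 by DESeq2, 2755 with only the control groups, 1188 without the libraries that stood apart and 131 to 848 without 1 library (this and the 3 other highest such values without fractal THP-1 replicate 3). The comparison under cytokines called 719, and 1561 and 495 to 1293 in the last 2 settings; the comparison with THP-1 called 3220, and 1412 with only its groups. The cytokine interaction called 436, then 688 by DESeq2, 983, 1461 and 271 to 1130 in the same order, and the THP-1 interaction 2134, then 3642 without the libraries that stood apart and 1632 to 3266. In the fits without those libraries fewer samples entered the shared spread; otherwise the cause was not tested. Over all tested genes, same-numbered libraries did not deviate together (correlations from -0.049 to 0.049), so the fits did not pair them. This cannot show whether same-numbered libraries were prepared together, which the labels do not state. With the replicate number as a block the genes called between controls were still 3, and the only call of the 10 genes that it ended was SEMA3C with THP-1 on fractal topography (0.25, adjusted p = 0.0547). Depth limits L1CAM with cytokines, where a library held 5 to 27 counts.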
